A study of Mus musculus with 2 samples.

Results

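The 10 genes described here encode granzymes and other effectors of cytotoxic lymphocytes: Gzma, Gzmb, Gzmk, Gzmc, Prf1, Nkg7, Serpinb9, Ifng, Xcl1 and Fasl. They were taken by symbol from the rows of the count matrices, and all 10 were found among 32285 genes. Immune cells from the gingiva of C57BL/6 mice with experimental periodontitis were measured by single-cell RNA sequencing, in 1 library of wild-type (WT) mice and 1 of mice labelled Otud1-/-. OTUD1 is a deubiquitinase. No library of healthy gum was analysed here. The sources used here do not give the age or sex of the mice, the number pooled, or the deleted part of Otud1. Since each genotype is a single library, differences between the libraries have no replicate check and no p-value is given. The 95% intervals in parentheses are exact and cover counting error only.

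Natural killer (NK) cells and cytotoxic CD8 T cells kill target cells by releasing granules that hold perforin and granzymes. Perforin opens the membrane of the target, and granzymes, a family of serine proteases, enter and cleave proteins whose loss leads to its death. The same lymphocytes can kill through Fas ligand, and they secrete interferon gamma, which activates macrophages, and XCL1, which attracts dendritic cells that carry XCR1.

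Cells were clustered without the 10 genes, so that no class was defined by them. NK-like cells were 1 cluster of 520 WT cells and 213 cells of the library labelled Otud1-/-. All 14 NK cell markers were detected there in both libraries, with a sum of 5441 and 7168 CPM, where CPM are UMIs (captured transcripts) scaled to 1000000 UMIs of the class. A Cd3 UMI was found in 20.8% and 15% of these cells. CD8 T cells, 316 and 224, were cells of T cell clusters with a Cd8a or Cd8b1 UMI and no Cd4 UMI. The other T cells, 1479 and 658, were the remaining cells of the T cell clusters. A Cd4 UMI was found in 316 and 247 of them, UMIs of both coreceptors in 17 and 4, and no Cd3 UMI in 148 and 34. Of the T cell clusters, cluster 14 was led by gamma delta T cell genes such as Trdc and held 314 and 104 cells. Cluster 19, of cycling cells, held 152 and 21, and both counts include CD8 T cells. B-like cells, 2164 and 2872, served as a class that should lack these transcripts. In each pair of values the WT library comes first.

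The libraries differed in depth and makeup. They held 13267 and 8109 barcodes with 44878537 and 44083735 UMIs, and NK-like cells had a median of 1379.5 and 4202 UMIs. Otud1 went against the label, with 18.6 (17.3 to 19.9) and 33 (31.4 to 34.8) CPM over all barcodes, and every direction below is between libraries as labelled. Xist UMIs were found in 35% and 0% of NK-like cells and Y-linked UMIs in 19.04% and 64.3%, so the WT library held cells of both sexes. In all, 37 barcodes occurred in both libraries.

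The 4 granzyme genes lie in pairs on 2 chromosomes of the mouse genome (GRCm38, GENCODE M21 models). Gzmb (ENSMUSG00000015437, chr14:56258838-56262260, minus strand, 5 exons) and Gzmc (ENSMUSG00000079186, chr14:56231441-56234656, minus strand, 5 exons) lie on chromosome 14, and their longest transcripts are 77.8% identical over 883 aligned bases. Gzma (ENSMUSG00000023132, chr13:113093825-113100981, minus strand, 6 exons) and Gzmk (ENSMUSG00000042385, chr13:113171608-113225908, minus strand, 6 exons) lie on chromosome 13. In the last 400 bases of the longest transcript, where a 3′ assay reads, 9 of the 10 genes shared no run of at least 31 bases with another gene. For Serpinb9 such runs, shared with Ube2t, covered 8.5%. Gzmk and Xcl1 overlap Esm1 and Gm20743 on the opposite strand, and Ifng overlaps Gm49751 on its own. The part of these overlaps in the counts was not tested.

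The promoters of Gzmb and Gzmc are shown because the genes lie close together and Gzmb was found across NK-like and T cells while Gzmc was found almost only in NK-like cells, and those of Gzma and Prf1 because both were highest in NK-like cells. Each line is the 250 bases before the RefSeq start site (GRCm38.p6), 5′ to 3′ on the gene's strand. Capitals mark the T-box half-site GTGTGA and the RUNX core TGTGGT on either strand, motifs of transcription factor families known in cytotoxic lymphocytes.
Gzmb (chr14:56262335-56262584, minus strand): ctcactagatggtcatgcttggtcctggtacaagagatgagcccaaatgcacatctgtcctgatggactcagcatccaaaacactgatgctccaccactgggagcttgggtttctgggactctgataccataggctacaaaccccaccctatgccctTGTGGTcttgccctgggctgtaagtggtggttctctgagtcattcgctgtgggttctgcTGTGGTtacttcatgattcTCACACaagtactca
Gzmc (chr14:56234658-56234907, minus strand): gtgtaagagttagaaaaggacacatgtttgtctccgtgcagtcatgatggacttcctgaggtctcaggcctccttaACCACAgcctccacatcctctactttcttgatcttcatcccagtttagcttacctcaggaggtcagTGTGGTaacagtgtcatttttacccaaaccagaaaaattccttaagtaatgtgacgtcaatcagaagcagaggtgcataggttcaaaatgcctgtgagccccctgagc
Gzma (chr13:113100982-113101231, minus strand): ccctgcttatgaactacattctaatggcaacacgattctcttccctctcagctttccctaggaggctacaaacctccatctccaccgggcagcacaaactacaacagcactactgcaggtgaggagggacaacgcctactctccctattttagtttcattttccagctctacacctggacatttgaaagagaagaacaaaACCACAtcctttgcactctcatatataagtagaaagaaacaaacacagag
Prf1 (chr10:61297586-61297835, plus strand): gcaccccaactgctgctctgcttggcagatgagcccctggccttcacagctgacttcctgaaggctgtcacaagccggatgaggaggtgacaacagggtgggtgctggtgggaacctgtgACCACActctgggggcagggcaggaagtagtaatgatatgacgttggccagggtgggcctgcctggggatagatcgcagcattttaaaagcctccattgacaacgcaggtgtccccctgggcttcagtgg
The Gzmb window held 1 T-box half-site, from -15 to -10 of the start site, and 2 RUNX cores. The Gzmc window held 2 RUNX cores and no T-box half-site, and those of Gzma and Prf1 held 1 RUNX core each. Among the 10 genes, 4 windows held the T-box half-site and 6 the RUNX core, against 12.3% and 14% of 32851 promoter windows of this length. A match is a description of the letters and not a binding site.

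Gzma, which encodes a granzyme that cuts after basic residues, was highest in NK-like cells, at 4748 (4614 to 4885) and 7898 (7726 to 8073) CPM. CD8 T cells stood at 563 (524 to 604) and 1347 (1283 to 1413) CPM and other T cells at 65.7 (58.2 to 74.0) and 184 (169.9 to 199) CPM. The intervals of these classes did not overlap in either library, but in the WT library other T cells overlapped with mast cell/basophil-like cells, at 40.7 CPM. NK-like cells held 73.0% and 74.4% of all Gzma UMIs of kept cells. A Gzma UMI was found in 72.9% and 87.3% of them, against 3.19% and 2.19% of B-like cells, which had median depths of 2583 and 3424 UMIs. With each cell thinned to 1000 UMIs, which left out 111 and 4 shallower NK-like cells, the shares were 70.4% and 81.8%.

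Gzmb encodes granzyme B, which cleaves caspases after aspartate, and it was spread more evenly over lymphocytes. NK-like cells had 767 (714 to 823) and 950.3 (891 to 1012) CPM, CD8 T cells 379 (348 to 413) and 286 (257 to 318) CPM and other T cells 161 (149 to 174) and 74.5 (65.6 to 84.3) CPM. The order was the same in both libraries, each class apart from the next. NK-like cells held 33.3% and 53.9% of all Gzmb UMIs, CD8 T cells 22.8% and 19.8% and other T cells 29.3% and 14.0%. The share of NK-like cells with a Gzmb UMI was 46.3% and 69.5%, or 37.2% and 44.0% after thinning, against 1.57% and 0.592% of B-like cells.

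Gzmk, which encodes a relative of granzyme A, was the 1 gene of the 10 that was highest in CD8 T cells, at 62.0 (49.6 to 76.6) and 68.1 (54.3 to 84.3) CPM. Other T cells had 20.8 (16.7 to 25.7) and 5.96 (3.64 to 9.21) CPM, and NK-like cells held only 7 and 14 Gzmk UMIs, or 7.01 and 13.8 CPM. NK-like and other T cells were apart in the WT library and overlapped in the library labelled Otud1-/-.

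Gzmc, which encodes granzyme C, was the most restricted to NK-like cells, which held 90.3% and 92.1% of its 382 and 441 UMIs. Their level was 345 (310.0 to 384) and 400.2 (362 to 441) CPM. CD8 T cells had 1 and 6 Gzmc UMIs, other T cells 24 and 11, and B-like cells 0 and 2. A count of 0 in the WT B-like cells allows up to 0.489 CPM. Few NK-like cells carried Gzmc, 31 and 20, which is 5.96% and 9.39% of the class and 5.87% and 4.78% after thinning.

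Prf1, the perforin gene, was at 439 (398 to 482) and 846 (790.1 to 904) CPM in NK-like cells. CD8 T cells stood far below, at 28.8 (20.6 to 39.3) and 62.4 (49.2 to 78.0) CPM, and other T cells at 15.8 and 17.6 CPM. CD8 T cells held 5.82% and 6.97% of all Prf1 UMIs, a smaller part than of the Gzmb UMIs in each library.

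Nkg7 encodes a membrane protein of cytotoxic granules that takes part in their release. NK-like cells had 1532 (1456 to 1611) and 2462 (2367 to 2561) CPM, CD8 T cells 574 (535 to 615) and 867 (816 to 921) CPM and other T cells 254 (239 to 269.9) and 129.9 (118 to 143) CPM, each class apart from the next in both libraries. A Nkg7 UMI was found in 64.2% and 77.7% of CD8 T cells, or 35.8% and 40.4% after thinning, against 1.85% and 1.32% of B-like cells.

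Serpinb9 encodes an inhibitor of granzyme B that protects cells from their own granules, and it was at 484 (441 to 529) and 868 (812 to 928) CPM in NK-like cells. Dendritic-like cells came next, at 129 (117 to 143) and 129 (117 to 142) CPM. CD8 T cells had 42.6 (32.4 to 54.9) and 103 (85.8 to 122) CPM, which overlapped with dendritic-like cells in the library labelled Otud1-/-, and other T cells 49.97 and 55.1 CPM. Cells other than NK-like and T cells held 48.7% and 35.1% of all Serpinb9 UMIs, the largest such share of the 10 genes in each library. In dendritic-like cells Serpinb9 was the 1 gene that passed the filter on low counts described below, and at a ratio of 1.001 (0.870 to 1.15) it was counted as neither higher nor lower, beside 2.31% of genes higher and 3.57% lower there.

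Ifng, the interferon gamma gene, was at 64.1 (49.4 to 81.8) and 255 (225 to 288) CPM in NK-like cells. Other T cells came second, at 33.7 (28.4 to 39.8) and 104 (93.4 to 116) CPM, and CD8 T cells had only 10 and 15 UMIs. Other T cells held 52.4% and 51.8% of all Ifng UMIs, but in the library labelled Otud1-/- most of theirs were in 1 cell, described below.

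Xcl1, the ligand of XCR1, was at 474 (432 to 518) and 1058 (995 to 1123) CPM in NK-like cells, which held 68.5% and 81.7% of its UMIs. CD8 T cells had 16.6 and 34.9 CPM and other T cells 18.4 and 30.7 CPM, with intervals that overlapped in both libraries. Fasl, the Fas ligand gene, was at 148 (125 to 174) and 239 (209 to 271) CPM in NK-like cells. CD8 T cells had 25.2 (17.6 to 35.1) and 94.0 (77.7 to 113) CPM and other T cells 28.9 (24.0 to 34.6) and 35.5 (29.4 to 42.4) CPM, which overlapped in the WT library and were apart in the library labelled Otud1-/-.

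**Figure D1:**
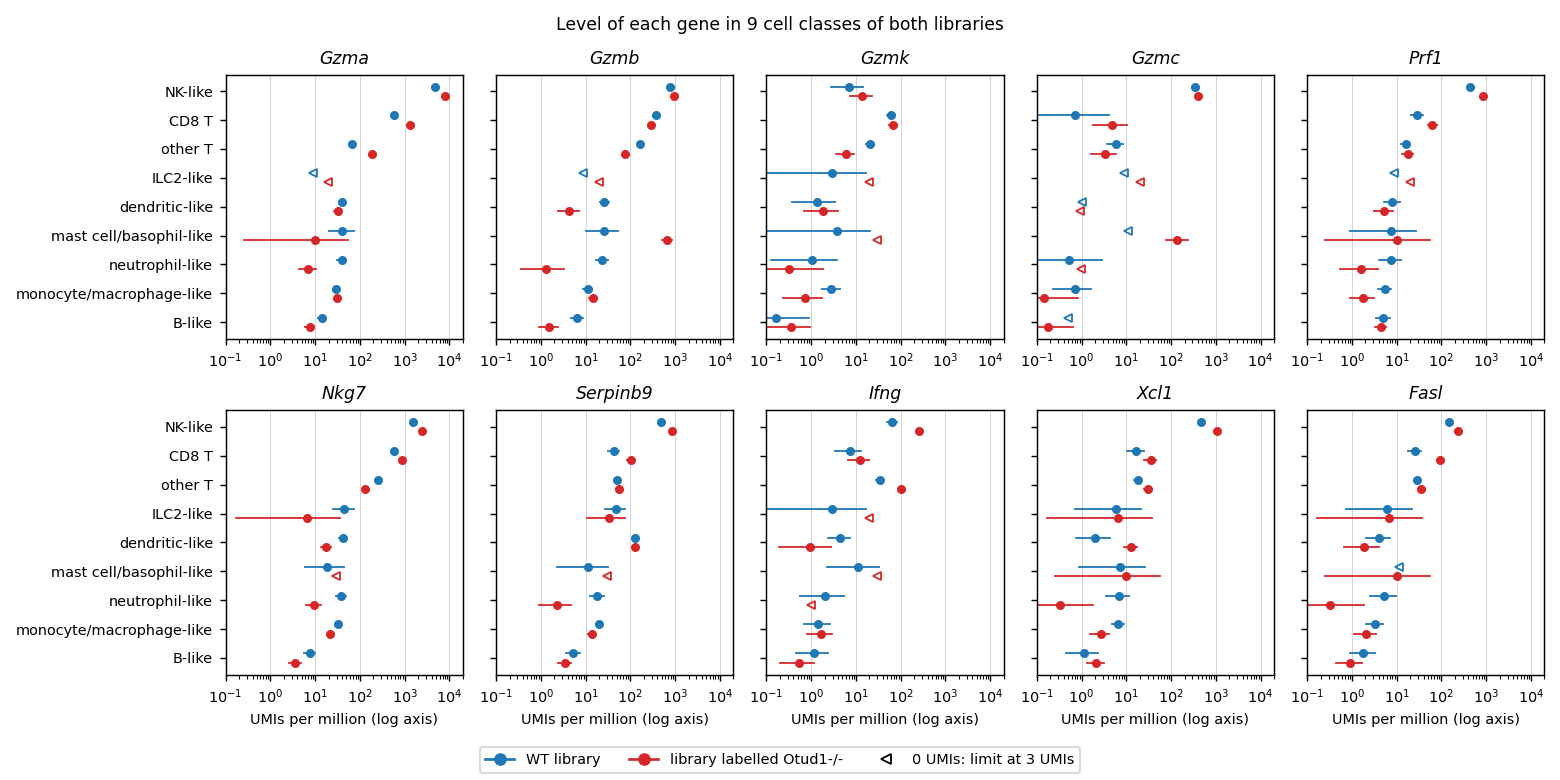
Level of each gene in CPM (log axis) in 9 cell classes of the WT library (blue) and the library labelled Otud1-/- (red). Points are levels, bars exact Poisson 95% intervals cut at the left edge of the axis, and open triangles the level of 3 UMIs where a class had 0. In both libraries 9 of the 10 genes were highest in NK-like cells and Gzmk in CD8 T cells.

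For 9 of the 10 genes NK-like cells were thus the highest class of at least 50 cells, apart from the next class in both libraries. Mast cell/basophil-like cells of the library labelled Otud1-/-, only 22 in number, had 666 CPM of Gzmb and 139 CPM of Gzmc. Of their 67 Gzmb UMIs, 63 were in 1 cell, which also held all 14 Gzmc UMIs, 13 Gata2 UMIs, 7 Trac UMIs and none of Nkg7 or Cpa3.

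The share of a gene's UMIs in its highest single cells varied widely. Nkg7, Fasl and Serpinb9 were spread over many cells, and the highest 10 cells held 5.62%, 9.74% and 8.13% of their UMIs in the WT library and 8.80%, 11.4% and 11.6% in the library labelled Otud1-/-. Gzma, Gzmb and Prf1 were intermediate, at 10.8%, 12.4% and 12.8% of the UMIs of WT cells and 15.8%, 21.1% and 17.7% of the others. Gzmc was the most concentrated, with 62% and 91.6% in the highest 10 cells, and 8 and 3 cells held 50% of its UMIs. For Ifng the highest 10 cells held 27.1% and 72.8%, for Xcl1 18.4% and 34%, and for Gzmk 23.1% and 38.5%. All 10 genes had a larger such share in the library labelled Otud1-/-, which also had fewer kept cells, 6486 against 11414.

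**Figure D2:**
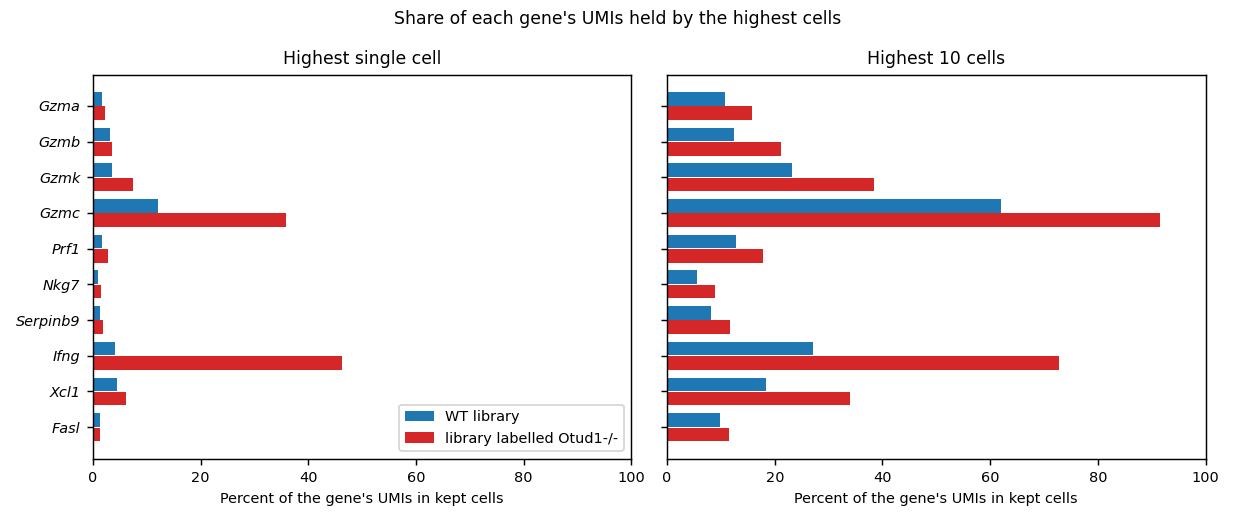
Percent of each gene's UMIs in kept cells that were held by the highest single cell (left) and the highest 10 cells (right), in the WT library (blue) and the library labelled Otud1-/- (red). In the latter 1 cell held 46.3% of the Ifng UMIs and another 35.8% of the Gzmc UMIs.

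The Ifng cell belonged to T cell cluster 2 of the library labelled Otud1-/- and held 312 of 674 Ifng UMIs. It had 7664 UMIs in all, with 0 of Gzma, Gzmb, Prf1 and Nkg7, 4 of Serpinb9, 1 of Trac, 1 of Cd4 and 0 of Cd3e. It did have a UMI of Cd3d or Cd3g. Other T cells with a Cd3 UMI held 333 of the 349 Ifng UMIs of that class there, this cell included. The next cell was NK-like and held 71 Ifng UMIs together with 75 of Xcl1, 87 of Gzma and 25 of Prf1. No WT cell had more than 11 Ifng UMIs.

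The highest Gzmc cell of the library labelled Otud1-/- was NK-like and held 158 Gzmc UMIs and 56 of Xcl1, with 0 of Gzma, Gzmb and Prf1. The second held 54 and was also the highest Xcl1 cell, with 80 UMIs. The highest WT Gzmc cell had 46 Gzmc UMIs, 7 of Gzmb and 0 of Gzma. Thus none of these 3 cells had a Gzma UMI. The highest Gzma cell was NK-like in the library labelled Otud1-/-, with 249 UMIs, and a CD8 T cell of the cycling cluster 19 in the WT library, with 106.

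Between the libraries, most of the 10 genes were higher in NK-like cells of the library labelled Otud1-/-. A gene was counted at a ratio of at least 1.5 if its mean over the libraries reached 50 CPM and the higher library held at least 50 UMIs. Of the 9 genes that passed this filter, 7 were higher and 0 lower, beside 6% of 2634 genes higher and 5.92% lower. Their median log2 ratio was 0.73 and that of all genes 0.06. Ifng had the largest ratio, 3.98 (3.02 to 5.32), followed by Xcl1 at 2.23 (2.002 to 2.49), Prf1 at 1.93 (1.72 to 2.17) and Serpinb9 at 1.80 (1.61 to 2.01). Gzma stood at 1.66 (1.60 to 1.72), Fasl at 1.61 (1.31 to 1.99) and Nkg7 at 1.61 (1.51 to 1.71). Gzmb, at 1.24 (1.13 to 1.36), and Gzmc, at 1.16 (1.001 to 1.34), were counted as neither, and Gzmk was under the filter. Per cell, the median Gzma rate was 35.7 and 72 per 10000 UMIs.

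Single cells set the value of Gzmc. Without the highest cell of each library its log2 ratio went from 0.21 to -0.30, and among NK-like cells with no Cd3 UMI it was -0.95. Other subsets moved it upward, to 0.83 among cells with Y-linked and no Xist UMIs and 0.79 among cells of at least 2000 UMIs. The log2 ratio of Ifng was 1.99, and 1.55 without the highest 1% of cells.

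Markers of the class itself and of other classes also differed between the libraries. Of the 14 NK cell markers past the filter 3 were higher and 0 lower in the library labelled Otud1-/-, with a median log2 ratio of 0.45. The 14 B cell markers, none of them at 0, summed to 1477 and 381 CPM in NK-like cells, 43.8% and 10.4% of the level over all kept cells, and all 6 that passed the filter were lower. Monocyte/macrophage markers, 19 in number, summed to 1173 and 586 CPM, with 2 of 4 lower and 1 and 5 at 0, Vcan in both libraries. The 17 neutrophil markers summed to 438 and 272 CPM, with 2 of 2 lower and 0 and 2 at 0, Ly6g and Ngp. The 17 dendritic cell markers summed to 321 and 197 CPM, with 2 of 2 lower and 4 and 6 at 0, among them Xcr1 and Clec9a. The 16 T cell markers, none at 0, summed to 1680.2 and 1323 CPM, with 2 of 11 higher and 3 lower. Plasma cell markers, 12 in number, summed to 1474 and 549 CPM, with 1 of 3 lower and 1 and 2 at 0. Other lists had higher sums in the library labelled Otud1-/-. The 12 markers of group 2 innate lymphoid cells summed to 312 and 391 CPM, with 1 of 3 higher and 2 and 5 at 0. The 13 mast cell/basophil markers summed to 201 and 233 CPM, with 1 of 2 higher and 7 and 8 at 0. The part of such transcripts in the ratios was not tested, and the subtraction of B-like levels below could not settle it.

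The counts of higher genes have to be read against the shift of all genes in each subset. With the B-like level of each gene subtracted, 7 of the 10 were higher and 0 lower, beside 34.6% of 636 genes higher and 5.03% lower. B-like cells had 14.3 and 7.55 CPM of Gzma, the most of the 10. Subtraction could thus hardly change the ratios of these genes. The scaling to all UMIs of the NK-like cells was kept, so B cell transcripts in that total were not corrected for. Among cells of at least 2000 UMIs, 150 and 195 in number, 8 were higher and 0 lower, beside 9.67% of 2152 genes higher and 5.11% lower. Among cells with Y-linked and no Xist UMIs, 75 and 137 in number, 7 were higher and 0 lower, beside 18.7% of 1398 genes higher and 2.72% lower. These 7 were not the 7 of the whole class: Gzmc was higher there, at 1.78 (1.23 to 2.65), and Serpinb9, at 1.27 (1.05 to 1.53), was not. Ifng, Fasl and Gzmc had only 12, 30 and 33 WT UMIs there. They passed the filter only through the library labelled Otud1-/- and so had to stand on its side. Gzmb stood at 0.904 (0.761 to 1.08) in these cells.

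CD8 T cells had fewer genes to compare. Of the 6 genes past the filter 4 were higher and 0 lower in the library labelled Otud1-/-, beside 3.02% of 2418 genes higher and 4.14% lower. Fasl had the largest ratio, 3.72 (2.53 to 5.60), then Serpinb9 at 2.42 (1.76 to 3.35), Gzma at 2.39 (2.20 to 2.61) and Nkg7 at 1.51 (1.38 to 1.66). Fasl and Serpinb9, at under 50 CPM in the WT library, passed the filter only through the library labelled Otud1-/- and so had to stand on its side, which leaves Gzma and Nkg7 as 2 higher of 4. Gzmb, at 0.754 (0.657 to 0.865), and Gzmk, at 1.10 (0.803 to 1.5002), were neither, and Prf1, Xcl1, Ifng and Gzmc were under the filter. Without the highest 1% of cells 4 genes could be compared and 2 were higher. The 14 B cell markers, none at 0, summed to 1023 and 516 CPM here, and 3 of the 4 past the filter were lower.

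Other T cells were mixed. Of the 5 genes past the filter 2 were higher and 2 lower, beside 0.821% of 2681 genes higher and 3.54% lower. Gzma was higher, at 2.80 (2.43 to 3.24), although 86.4% of its UMIs in the library labelled Otud1-/- were in 10 cells. Cells with no Cd3 UMI held 23 of 275 and 228 of 618 Gzma UMIs. One such cell of cluster 19 in the library labelled Otud1-/- had 66 of Gzma, 12 of Prf1, 11 of Klrb1c and 4 of Ncr1, both NK cell receptors, and 0 of Trac. Among the 1331 and 624 cells with a Cd3 UMI the ratio of Gzma was 1.89 (1.60 to 2.22), and 2 genes were higher and 2 lower, beside 0.826% of 2664 genes higher and 3.75% lower. The other higher gene was Ifng, which passed the filter only through the library labelled Otud1-/-. There 1 cell held 312 of its 333 UMIs. Over all other T cells Gzmb, at 0.462 (0.398 to 0.535), and Nkg7, at 0.511 (0.456 to 0.572), were lower, and Serpinb9, at 1.10 (0.9004 to 1.35), was neither. Cluster 19, with Gzmb among its top 10 genes, held 152 and 21 T cells, CD8 T cells included. The part of this difference in makeup in the ratios was not tested.

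The lower values of Gzmb and Nkg7 were not found among other T cells with Y-linked and no Xist UMIs, 312 and 424 in number. Gzmb had 58.5 (44.6 to 75.5) and 80.6 (69.7 to 92.8) CPM there, a ratio of 1.38 (1.02 to 1.88), and Nkg7 94.3 (76.3 to 115) and 127 (113 to 142) CPM, a ratio of 1.35 (1.07 to 1.71). The 437 WT cells with Xist and no Y-linked UMIs had 236 (211 to 264) CPM of Gzmb and 385 (352 to 419) CPM of Nkg7. Gzma was higher also among the cells with Y-linked UMIs, at 2.29 (1.77 to 3.003). In these cells 3 of 5 genes, Gzma, Ifng and Serpinb9, were higher and 0 lower, beside 2.08% of 2688 genes higher and 4.5% lower, and the last 2 passed the filter only through the library labelled Otud1-/-.

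Ifng in other T cells, which passed the filter only through the library labelled Otud1-/-, stood at 3.09 (2.53 to 3.78), but 312 of its 349 UMIs there were in the 1 cell described above. Without the highest cell of each library the ratio was 0.355 (0.239 to 0.515), with 37 UMIs left in the library labelled Otud1-/-. That lower value also depended on the WT cells used. WT cells with Xist and no Y-linked UMIs had 46.2 (35.5 to 59.2) CPM of Ifng. Those with Y-linked and no Xist UMIs had 2.98 (0.614 to 8.70) CPM, on 3 UMIs. A ratio without the highest cell was not computed for cells with Y-linked UMIs.

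**Figure D3:**
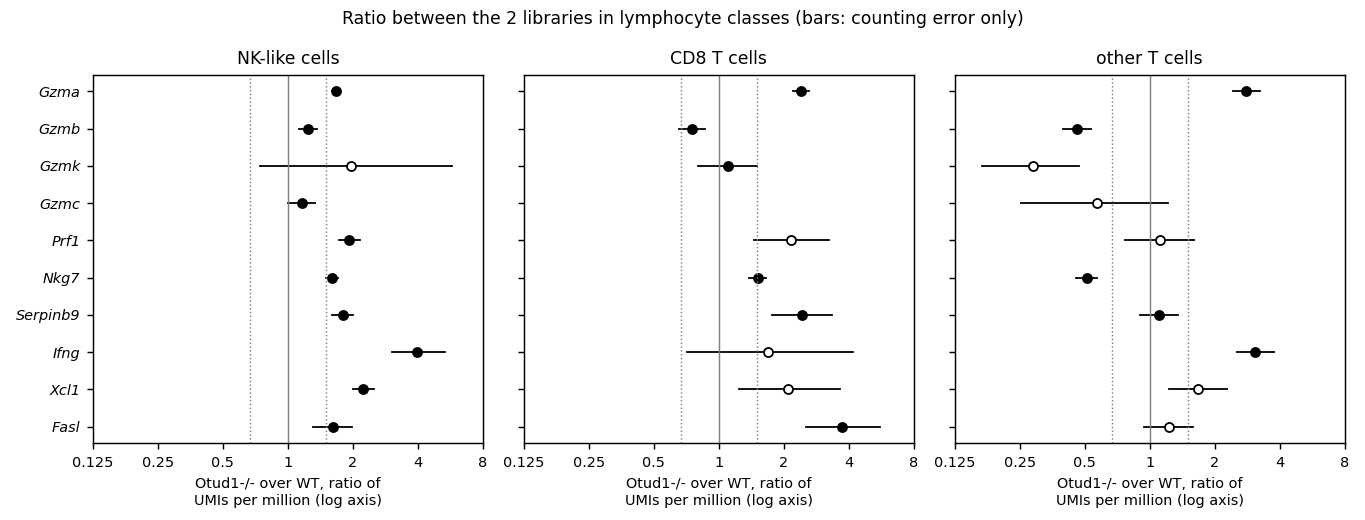
Ratio of the level in the library labelled Otud1-/- to that in the WT library (log axis) for each gene in NK-like, CD8 T and other T cells, with exact 95% intervals. Filled points passed the filter, open points did not, dotted lines mark a 1.5-fold difference, and Gzmc in CD8 T cells, with 1 and 6 UMIs, is not drawn. In NK-like cells all 9 filled points lie above 1, while in other T cells Gzmb and Nkg7 lie below 1 and Ifng rests on 1 cell.

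The CD8 T cells fell mostly into 3 clusters. Cluster 3, led by genes that include Lef1 and Tcf7, factors of naive and memory T cells, held 181 and 139 CD8 T cells with little of these genes except Nkg7, at 223 (194 to 257) and 262 (227 to 300.2) CPM. Its Gzma level was 24.5 (15.3 to 37.0) and 9.02 (3.63 to 18.6) CPM. Cluster 2, with 92 and 79 cells, had 1507 (1379 to 1644) and 3771 (3578 to 3971) CPM of Gzma and 965 (863 to 1076) and 807 (719 to 903) CPM of Gzmb. Within cluster 2 the library labelled Otud1-/- was higher, with intervals apart, for Gzma, for Fasl at 68.1 (43.2 to 102) and 276 (226 to 334) CPM, for Serpinb9 at 91.8 (62.4 to 130.3) and 268 (219 to 326) CPM and for Prf1 at 47.4 (27.1 to 76.9) and 124 (90.8 to 164) CPM. Nkg7 was also higher there with intervals apart, at 1341 (1221 to 1471) and 1991 (1851 to 2138) CPM. The intervals of Gzmb overlapped in this cluster.

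Cluster 19, led by histone genes of cycling cells, held 36 WT CD8 T cells and 5 of the library labelled Otud1-/-. Its Gzma level was 2014 (1772 to 2279) and 3129 (2730.2 to 3570.1) CPM and its Gzmb level 1514 (1306 to 1747) and 524 (369 to 722) CPM. The WT cells of the cluster held 188 of the 526 WT Gzmb UMIs of CD8 T cells, and a single Prf1 UMI.

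**Figure D4:**
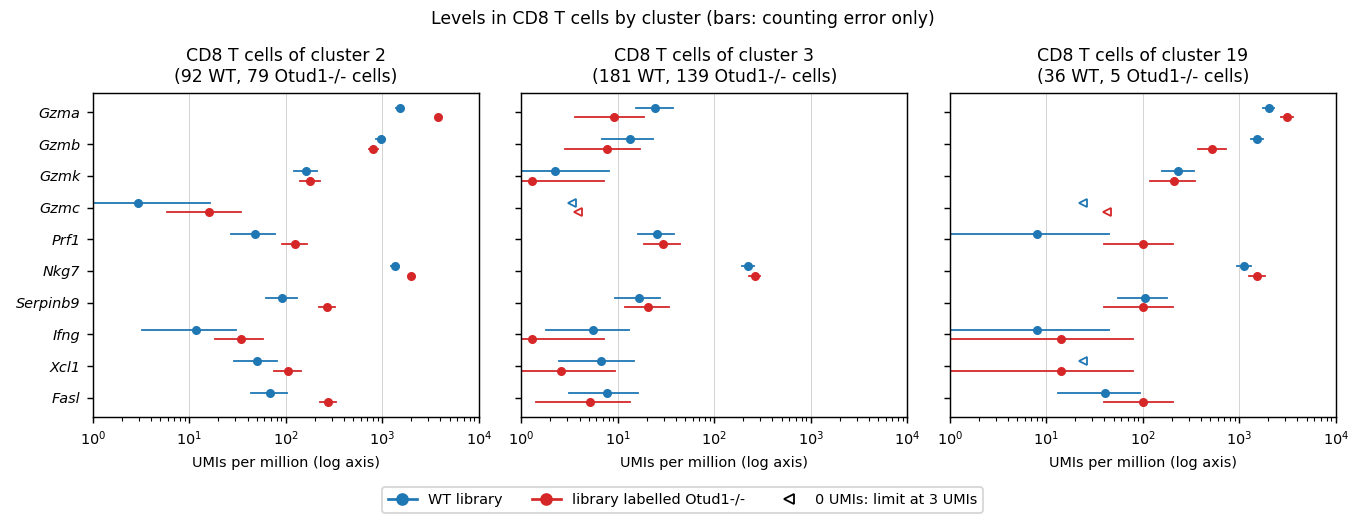
Level of each gene in CPM (log axis) in the CD8 T cells of clusters 2, 3 and 19 in the WT library (blue) and the library labelled Otud1-/- (red), with exact Poisson 95% intervals and open triangles for 0 UMIs. Gzma and Gzmb were high in clusters 2 and 19, and cluster 3 held mainly Nkg7.

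A few cells set the CD8 T levels. Of 65 and 49 CD8 T cells with a Gzma UMI, 7 in each library held 50% of the Gzma UMIs. For Gzmb 13 and 9 cells held 50%.

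The WT library also differed within itself. Its CD8 T cells with Xist and no Y-linked UMIs (119 cells) had 520.5 (462 to 584) CPM of Gzmb, and those with Y-linked and no Xist UMIs (70 cells) had 26.0 (12.5 to 47.9) CPM. Gzmk stood at 109 (83.5 to 140.2) and 7.81 (1.61 to 22.8) CPM and Gzma at 785 (713 to 862) and 294 (243 to 354) CPM in the same cells. All 3 granzymes were thus higher in the cells with Xist. The Gzma values rest on few cells. In the cells with Xist 1 cell held 106 of 439 Gzma UMIs. In those with Y-linked UMIs 4 cells held all 113, with 56 in 1 of them. WT CD8 T cells with neither kind of UMI (104 cells) had 367 (303 to 440) CPM of Gzmb. Those with both (23 cells) had 857 (704 to 1034) CPM, with 74 of 109 UMIs in 1 cell. In the library labelled Otud1-/- the 155 CD8 T cells with Y-linked UMIs had 247 (216 to 281) CPM of Gzmb. Its log2 ratio between the libraries was thus -0.41 over all CD8 T cells and 3.22 over cells with Y-linked UMIs alone. The latter rests on 10 WT UMIs in 5 cells, so Gzmb passed the filter there only through the library labelled Otud1-/-. Gzmk in the 155 cells was at 72.9 (56.5 to 92.6) CPM, a ratio of 9.33 (3.06 to 46.4) to the 3 WT UMIs, under the filter. Over all CD8 T cells the Gzmk ratio was 1.10 (0.803 to 1.5002). Sex and animal cannot be told apart here. WT NK-like cells split in the same way, with median depths of 1448 and 2143 UMIs, had 4806 (4561 to 5060.3) and 4589 (4296 to 4897) CPM of Gzma and 1548 (1410.1 to 1695) and 1518 (1352 to 1699) CPM of Nkg7, with intervals that overlapped. They were apart for 3 genes. Gzmc was higher in the cells with Xist, at 479 (404 to 564) against 166 (114 to 233) CPM. Serpinb9, at 399 (331 to 478) against 694 (583 to 819.5) CPM, and Xcl1, at 359 (295 to 434) against 593 (491 to 710.3) CPM, were lower in them. The Gzmc values rest on few cells, 8 of 158 with Xist and 3 of 75 with Y-linked UMIs. The highest of these held 46 of 144 and 16 of 33 Gzmc UMIs. For Xcl1, 1 cell held 31 of the 118 UMIs of the cells with Y-linked UMIs.

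NK-like cells with a Gzmc UMI differed from the rest of their cluster in other effectors. Gzma was lower in them, with 2213 against 4928 CPM in the WT library, a ratio of 0.449 (0.378 to 0.530), and 4531 against 8331 CPM in the library labelled Otud1-/-, a ratio of 0.544 (0.497 to 0.594). Xcl1 was higher in them, with ratios of 3.51 (2.77 to 4.40) and 3.35 (2.93 to 3.82). The direction of these 2 genes was the same in both libraries, although the 2 highest Gzmc cells of the library labelled Otud1-/- held 56 and 80 of the 323 Xcl1 UMIs there. Ifng had 0 UMIs in the WT cells with Gzmc and a ratio of 0.345 (0.170 to 0.628) in the library labelled Otud1-/-. Gzmb had ratios of 1.56 (1.21 to 1.98) and 0.820 (0.654 to 1.02), on different sides of 1, and Nkg7 of 0.967 (0.780 to 1.19) and 0.872 (0.762 to 0.994).

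Genes outside the 10, picked after their values were seen, also differed. Itga1, an integrin of tissue-resident lymphocytes, had ratios of 4.24 (1.39 to 10.9) and 5.83 (2.78 to 11.98), and Il7r, the interleukin 7 receptor, of 2.60 (1.59 to 4.08) and 4.20 (2.53 to 6.83). Eomes, a T-box factor of NK cells, was lower in the cells with Gzmc, with ratios of 0.165 (0.0338 to 0.488) and 0.612 (0.397 to 0.906). The median depth of cells with and without Gzmc was 1470 and 1347 UMIs in the WT library and 5296 and 4116 in the library labelled Otud1-/-, and its part in these ratios was not tested.

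**Figure D5:**
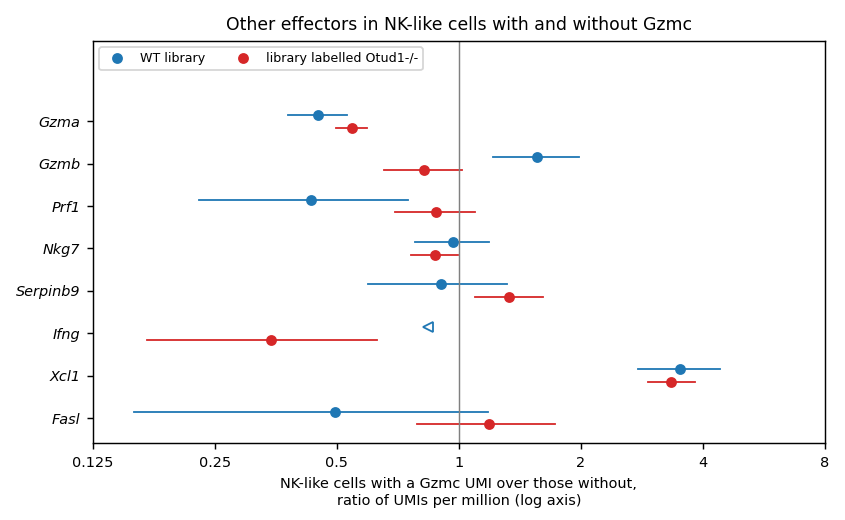
Ratio of the level of other effector genes in NK-like cells with a Gzmc UMI to that in NK-like cells without one (log axis), in the WT library (blue, 31 and 489 cells) and the library labelled Otud1-/- (red, 20 and 193 cells), with exact 95% intervals. The open triangle is the upper limit where no UMI was found, and Gzma lies below 1 and Xcl1 above 1 in both libraries.

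The effectors were often detected in the same cells. Of NK-like cells with a Gzmb UMI, 92.5% and 97.3% also had one of Gzma, against 55.9% and 64.6% of those without Gzmb. Of NK-like cells with Gzmc, 25.8% and 50% had Gzma and 71.0% and 90% had Xcl1. In those without Gzmc the shares were 75.9% and 91.2% for Gzma and 29.0% and 51.3% for Xcl1. Of CD8 T cells with Gzmb, 60.2% and 67.9% had Gzma, 42.2% and 41.1% had Gzmk and 14.5% and 42.9% had Prf1. In CD8 T cells without Gzmb the shares were 6.44% and 6.55%, 2.15% and 5.95%, and 9.44% and 18.5%. These shares depend on depth and were not thinned.

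Other genes of the pathway came from 8 lists with 69 genes, and their counts stand beside the shares of all genes given above, 6% higher and 5.92% lower in NK-like and 3.02% and 4.14% in CD8 T cells. Of 16 genes for granule loading and release 10 passed the filter in NK-like cells, with 2 higher and 1 lower in the library labelled Otud1-/-. Stx11, a syntaxin needed for granule release, had 47.1 and 108 CPM, a ratio of 2.30 (1.62 to 3.32), and Ctsc, the protease that activates granzymes, 45.1 and 83.8 CPM, a ratio of 1.86 (1.28 to 2.73). Both were under 50 CPM in the WT library and passed the filter only through the library labelled Otud1-/-. Lyst, a regulator of lysosome size, was lower, with 63.1 and 40.4 CPM, a ratio of 0.641 (0.421 to 0.964), and passed only through the WT library. In CD8 T cells 8 of the 16 passed and 0 were higher or lower. Of 5 other serpins 3 passed in NK-like cells and Serpinb6b was higher, with 473 and 771 CPM, a ratio of 1.63 (1.45 to 1.83), while 1 passed in CD8 T cells and was neither. The 6 other granzymes did not pass in either class, and Gzmm, with 10 and 8 UMIs, and Gzmd, with 6 and 0, had the most in NK-like cells.

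Of 8 other effector cytokines and chemokines 4 passed in NK-like cells and 2 were higher, the chemokine genes Ccl3, with 77.1 and 260.2 CPM, a ratio of 3.38 (2.61 to 4.41), and Ccl4, with 403 and 742 CPM, a ratio of 1.84 (1.63 to 2.09). In CD8 T cells 3 passed and 2 were higher, Ccl4, with 25.2 and 100.5 CPM, a ratio of 3.98 (2.72 to 5.97), and Ccl5, with 2416 and 5737 CPM, a ratio of 2.37 (2.28 to 2.48). Ccl4 in CD8 T cells passed only through the library labelled Otud1-/-, with 35 WT UMIs. Of 10 genes of interferon gamma signalling 6 passed in NK-like cells and 1 was higher, the chemokine Cxcl10, with 38.1 and 132 CPM, a ratio of 3.47 (2.41 to 5.12). Its 38 WT UMIs left it under 50 CPM there, so it too passed only through the library labelled Otud1-/-. In CD8 T cells 4 passed and 0 were called. Of 6 receptors of the effectors 1 passed in NK-like cells and 2 in CD8 T cells, with 0 called.

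Of 8 activating cytokine receptors 6 passed in NK-like cells, and Il18rap, a subunit of the interleukin 18 receptor, was higher, with 147 and 252 CPM, a ratio of 1.71 (1.39 to 2.11). Il2rb, a chain of the interleukin 2 and interleukin 15 receptors, was the 1 of 3 that was lower in CD8 T cells, with 422 and 264 CPM, a ratio of 0.626 (0.545 to 0.718). Of 10 transcription factors 7 passed in NK-like cells, with Ikzf2 lower at 294 and 186 CPM, a ratio of 0.633 (0.524 to 0.762), and Hopx higher at 54.1 and 81.8 CPM, a ratio of 1.51 (1.06 to 2.17). In CD8 T cells 5 passed and Hopx was higher, with 49.0 and 77.8 CPM, a ratio of 1.59 (1.15 to 2.20), and it passed only through the library labelled Otud1-/-.

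The genes most like each of the 10 were sought among 10464 genes by Pearson correlation of log2(CPM + 1) over 28 profiles, 1 for each class of at least 50 cells in a library. The profiles share their libraries, so these values are a description. Gzma was most like Gzmb at 0.94 and Prf1 at 0.92. Gzmc was most like NK cell receptor genes, Klra9 at 0.93, Ncr1 at 0.92 and Klra3 at 0.90, and Gzmk like T cell genes, Lef1 at 0.85, Trbc1 at 0.85 and Lck at 0.84. Xcl1 was most like Klra7 at 0.91, Fasl like Klrc2 at 0.89, Ifng like Fasl at 0.84, Nkg7 like Ms4a4b at 0.91, and Serpinb9 like Klrk1 at 0.92 and Serpinb6b at 0.91.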

How the data were processed

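The RNA of single cells was captured with 10x 3′ chemistry, per the labels' protocols. The deposited values were whole-number UMI counts per gene and barcode, not normalised by the authors, as the values show. The submitters' processing notes name Cell Ranger 5.0.0, Seurat 3.2.3 and mm10, while Cell Ranger 6.0.1 stands in the matrix headers, per the file headers.

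Barcodes with fewer than 200 genes or more than 15% mitochondrial UMIs were dropped, as were the highest scores of a simulated doublet search, at 0.8% per 1000 barcodes (1355 WT cells and 450 others). Both libraries were clustered together (2000 variable genes without the 10 genes and 69 pathway genes, 30 principal components, 20 neighbours, Leiden resolution 1, leidenalg 0.10.2, scikit-learn 1.9.0). Clusters were named from 21 marker sets, each name resting on at least 3 markers among the top 50 genes. Unnamed clusters held 13.3% of WT and 7.20% of other kept cells.

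UMIs were summed per class and scaled to CPM. Ratios divide the library labelled Otud1-/- by WT, and log2 ratios add 0.5 CPM to both. Intervals are Poisson for levels and conditional binomial for ratios. The code was tested on simulated data. The 10 genes, the gene lists and the markers were chosen with earlier results of these data known. All 10 genes are named, and of each pathway list up to 2 genes with the largest absolute log2 ratio past the filter in NK-like and in CD8 T cells. Lyst, Gzmm, Gzmd and the non-list genes of Gzmc cells were named after their values were seen. Likeness used genes with at least 200 UMIs. Promoters came from RefSeq (10 of 10 matched) and shared transcript ends from BLAST+ 2.17.0. Alternatives were other doublet, mitochondrial, scaling (edgeR 4.0.16 and DESeq2 1.42.0 factors only), filter, prior and clustering settings.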

Additional observations from a re-analysis of the deposited data

How the results depend on the processing

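In NK-like cells 7 genes were higher in the setting reported and 6 to 8 under the alternatives run. The count of lower genes was 0 except among cells with no Cd3 UMI, where Gzmc made it 1. In CD8 T cells 4 were higher. The count was 8 of 10 with no filter on low counts, 2 of 3 with a minimum of 100 CPM and 100 UMIs, and 2 of 4 without the highest 1% of cells; under the other alternatives it was 3 to 5. In other T cells the count of higher genes went from 2 to 1 without the highest cell, and the log2 ratio of Ifng turned from 1.61 to -1.45; among those with Y-linked and no Xist UMIs the count of lower genes went from 2 to 0, and the log2 ratios turned to 0.46 for Gzmb and 0.43 for Nkg7. Of 190 log2 ratios in each class, 22 in NK-like and 18 in CD8 T cells left the counting interval. Of 40 shares of cells with a UMI 34 moved on thinning, so they depend on depth. TMM and median-of-ratios factors shifted log2 ratios by 0.06 and 0.02 in NK-like cells and by 0.06 and 0.04 in CD8 T cells. The settings with cells of at least 2000 UMIs, without shared barcodes and, for other T cells, without the highest cell, with a Cd3 UMI or with Y-linked UMIs were chosen after seeing the data. No paired analysis was possible because each genotype had 1 library.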
